A study of Mus musculus with 6 samples.

Results

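Mediator is the multi-subunit complex that connects DNA-bound transcription factors with RNA polymerase II. Its kinase module is a detachable part made of a cyclin-dependent kinase (CDK8 or its paralog CDK19), cyclin C, MED12 or MED12L, and MED13 or MED13L. The module docks on the core complex through MED13, and MED12 activates the cyclin C-bound kinase. All positions but that of cyclin C can be filled by either of a pair of paralogs in vertebrates, so a cell can build the module in several versions. The 7 mouse genes of the module (Cdk19, Cdk8, Ccnc, Med12, Med12l, Med13 and Med13l) were located by symbol in the GENCODE M21 annotation of the mm10 build, among 30936 nuclear protein-coding and long non-coding genes with at least 200 exonic bases of their own. All 7 passed the minimum of 1 FPKM in the whole-gene and coding comparisons, and 6 had 3' UTR bases of their own. The set was chosen because Cdk19 differed between genotypes in its assembled 3' end, as seen in its whole-gene, coding and 3' UTR FPKM. The other 6 genes were taken as members of the same module. The Cdk19 values below that show this pattern are therefore a description and carry no test.

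The cells were oligodendrocyte precursor cells (OPCs), dividing cells from which the myelin-forming oligodendrocytes of the nervous system arise. They came from spinal cords of C57BL/6 mouse pups at postnatal day 0.5 and were selected on magnetic beads for the A2B5 antigen, a ganglioside on the surface of immature glia. Cells of both genotypes were grown for 16 h with the mitogen PDGF (10 ng/mL), the cytokine CNTF (10 ng/mL) and the adenylyl cyclase activator forskolin (5 µM), and total RNA was sequenced. There were 3 libraries of Gde3 KO cells and 3 of Gde3 WT cells, both on the C57BL/6 background. Gde3, whose gene symbol is Gdpd2, encodes a membrane enzyme that cleaves the glycolipid anchors of surface proteins. The labels do not give the allele, the breeding or whether each library came from its own animals, and the p-values below therefore reflect only how these libraries vary, which can be technical.

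Each library is available as its own transcript assembly, with exons and an FPKM value (fragments per kilobase of transcript scaled to library size) for each assembled transcript. Relative depth, from the read coverage that 1 FPKM stood for, was 0.88 to 0.99 of the deepest library in the KO libraries and 0.76 to 1 in the WT libraries. WT replicate 1 was in shorter pieces than the rest, and 36.8% of them were under 300 nt, where the other 5 libraries had 2.16% to 6.61%. Gdpd2, the targeted gene, had whole-gene values of 0.67, 1.497 and 1.78 FPKM in the KO replicates and 0, 2.79 and 2.85 FPKM in the WT replicates, and the listed 0 means that no transcript of 300 nt or more was assembled on its exons. With transcripts of any length admitted, Gdpd2 exons 9 and 10 (mm10 chrX:100734170-100734252 and chrX:100734364-100734514, plus strand) were not assembled in any KO library, whereas in WT replicates 1 to 3 exon 9 was complete and exon 10 was assembled to 21.9%, 100% and 100%. The OPC markers summed to 1051 to 1313 FPKM in KO libraries and 882 to 1405 FPKM in WT libraries, and no marker of any list was at 0 throughout. The 9 microglial markers summed to 101 to 188 FPKM in KO libraries and 56.7 to 78.6 FPKM in WT libraries, without overlap. Of single genes, 245 of 12029 (2.04%) had all KO libraries above all WT libraries in whole-gene values. No such share was computed for sums, and a sum can rest on a few of its genes. The 5 astrocyte markers summed to 169 to 620 FPKM in KO and 111 to 451 FPKM in WT libraries, the 5 neuronal markers to 88.5 to 104 and 96.0 to 120 FPKM, and the 5 oligodendrocyte markers to 93.8 to 172 and 117 to 121 FPKM.

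Cdk19 encodes one of the 2 alternative kinases of the module. It lies on mm10 chr10:40339564-40483818, plus strand (ENSMUSG00000038481.13), and its main annotated transcript has 13 exons, of which the last holds the final 126 bases of the reading frame before the stop codon and then the 3' untranslated region (UTR). In the KO libraries Cdk19 was assembled as 1 transcript of 13 exons that ran 4018, 3969 and 4019 nt past the last coding base in replicates 1, 2 and 3. In the WT libraries the assembly stopped inside the coding part of exon 13, at 16, 26 and 96 nt before the last coding base in replicates 1, 2 and 3. All 12 introns of the annotated transcript were assembled within a single transcript in each of the 6 libraries. The KO and WT libraries thus carried the same chain of 12 introns and differed in how far the last exon extended.

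**Figure D1:**
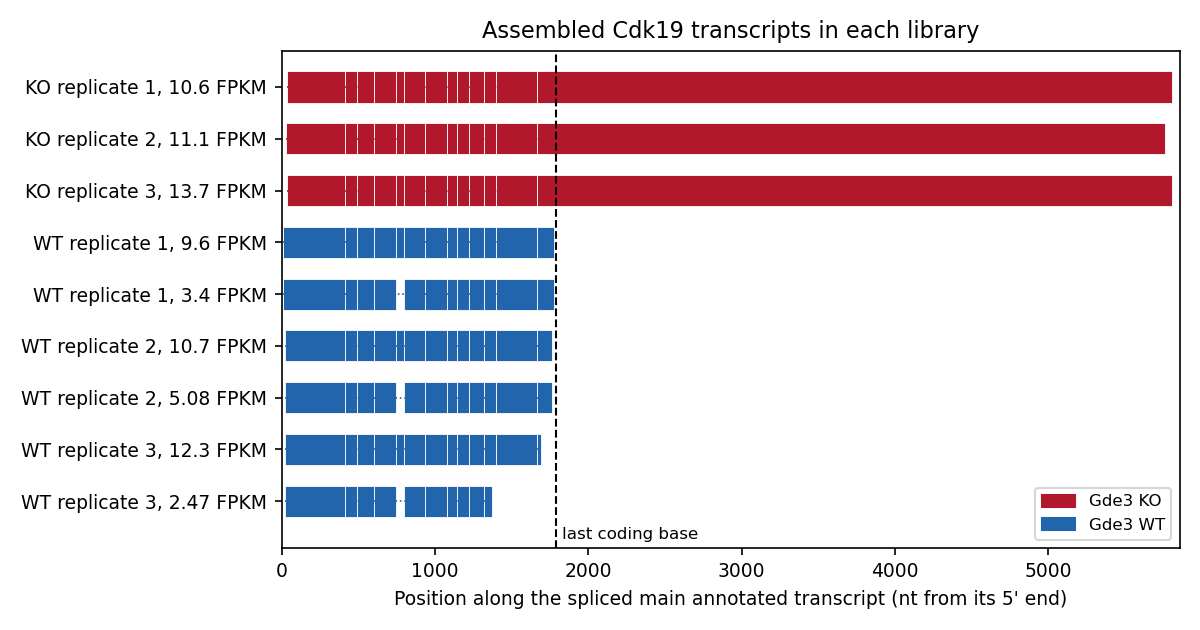
Each row is 1 assembled Cdk19 transcript of 300 nt or more, drawn along the spliced annotated transcript in nt from its 5' end. Filled blocks are assembled exons, the gap in 3 WT rows is exon 5, the dashed line marks the last coding base, and the row labels give the FPKM of each transcript. The 3 KO transcripts run to or near the annotated end, and all 6 WT transcripts stop before the dashed line.

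The assembled share of the 4018 annotated 3' UTR bases of Cdk19 was 100%, 98.8% and 100% in KO replicates 1 to 3 and 0% in each WT replicate. The WT share was still 0% when transcripts of any length, or of any strand, were admitted. The coding bases were assembled to 100% in each KO library and to 98.9%, 98.3% and 93.6% in the WT replicates. Counting a gene when at least 90% of its 3' UTR was assembled in every library of one genotype and at most 50% in every library of the other, 5 of 10631 genes with both regions measured (0.047%) met this with KO as the assembled genotype, Cdk19 among them. Another 6 genes (0.0564%) met it with WT as the assembled genotype. Both directions were therefore about as frequent across genes.

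The other 4 genes with the higher 3' UTR share in KO were Dgkd, a diacylglycerol kinase, Nol3, an inhibitor of cell death, Tmem208 and Klhl22, an adaptor of a ubiquitin ligase. Nol3 had coding values of 3.90, 2.69 and 3.47 FPKM in KO replicates and 5.86, 0 and 0 FPKM in WT replicates. In WT replicates 2 and 3 its coding bases were therefore not assembled either, unlike those of Cdk19. The 3' UTR share of Klhl22 was 100%, 100% and 99.7% in KO replicates and 0% in each WT replicate, and that of Dgkd was 99.5%, 94.9% and 93.4% in KO replicates and 1.53%, 1.04% and 1.04% in WT replicates. Itch, a ubiquitin ligase, was the mirror image, at 0% in each KO replicate and 98.6%, 98.7% and 99.6% in WT replicates. A 3' UTR with under 10% of its bases assembled was common in any single library, with 9.60%, 10.6% and 13.3% of these genes in KO replicates 1 to 3 and 11.2%, 10.8% and 11.7% in the WT replicates.

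Averaged over all exonic bases, Cdk19 had 10.6, 11.0 and 13.7 FPKM in KO replicates 1 to 3 and 3.50, 4.21 and 3.63 FPKM in the WT replicates. The lowest KO library lay well above the highest WT library. Over coding bases alone the gene had 10.6, 11.1 and 13.7 FPKM in KO replicates and 12.7, 15.3 and 13.2 FPKM in WT replicates, and the genotypes overlapped. Over the 3' UTR bases it had 10.6, 11.0 and 13.7 FPKM in KO replicates and was listed at 0 in each WT replicate, which says only that nothing was assembled there.

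On the log2(FPKM + 1) scale, the Cdk19 difference (KO minus WT) was 1.41 for the whole gene and -0.21 for coding bases. Both describe the values that chose the gene. The whole-gene difference changed sign, to -0.25, when the average was taken over assembled bases only, and to -0.28 when FPKM was summed over transcripts. In the whole-gene comparison 245 of 12029 genes (2.04%) had the KO libraries all above the WT libraries, and Cdk19 was one of them by the rule that chose it. FPKM belongs to a whole assembled transcript, so in KO the coding and 3' UTR bases of Cdk19 necessarily have nearly the same value, averaged over the long transcript, while the WT value rests on coding exons alone. In these bulk samples fewer cells of a type and less RNA per cell cannot be told apart.

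The WT libraries differed from the KO libraries at a second place in Cdk19. No KO library had a transcript that joined exon 4 directly to exon 6, whereas 1 of the 2 assembled transcripts did so in every WT library. Exon 5 (chr10:40454015-40454072, plus strand) is 58 nt long, a length that leaves 1 base over when divided by 3. The junctions are shown because they are what separates the 2 WT transcripts, with the exon 5 bases in capitals and 15 bases on each side, read from the GENCODE M21 transcripts of mm10.
exon 4 to exon 5: ctccacagggacctgAAACCAGCAAATATC
exon 5 to exon 6: GGAGAGTCAAAATAGctgacatgggttttg
exon 4 to exon 6: ctccacagggacctgctgacatgggttttg
The exon 4 to exon 5 junction falls within the codons of the catalytic loop, the conserved stretch of a protein kinase that carries the residue acting on the substrate hydroxyl. With exon 5 in place the reading frame ran for 501 codons before its stop. With exon 5 skipped it ran for 164 codons and met a stop 36 bases into exon 6. The annotation holds this form as another Cdk19 transcript, classed as a target of nonsense-mediated decay, the surveillance pathway that degrades messages with an early stop.

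The transcript that kept exon 5 had 10.6, 11.1 and 13.7 FPKM in KO replicates 1 to 3, against 9.60, 10.7 and 12.3 FPKM in the WT replicates. The transcript that skipped it was not assembled in KO and had 3.40, 5.08 and 2.47 FPKM in the WT replicates. The skipping form thus made up 0% of the assembled Cdk19 FPKM in each KO library and 26.1%, 32.1% and 16.7% in the WT replicates. The 0% says only that no such transcript was assembled, since reads across the junctions were not counted. The FPKM of the form that kept exon 5 overlapped between the genotypes. In WT replicate 3 the skipping transcript was shorter than its partner and ended in exon 11.

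**Figure D2:**
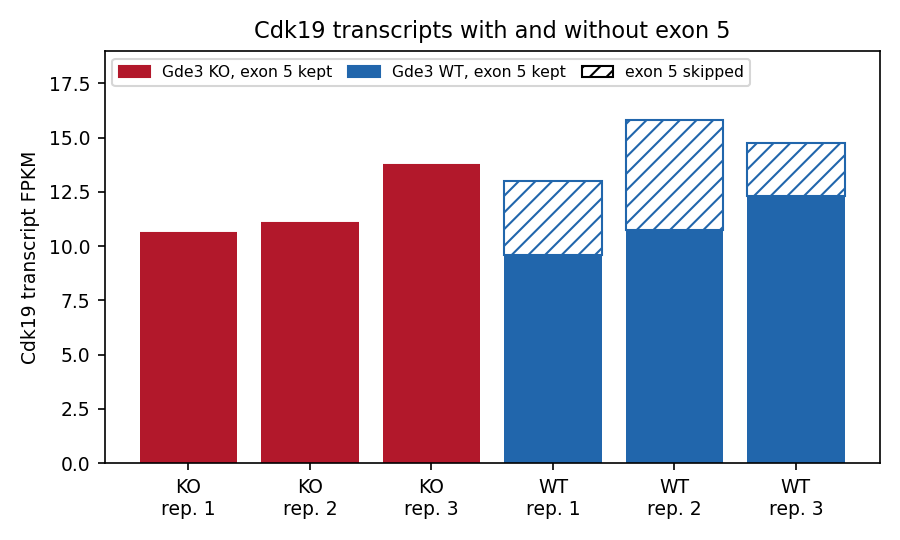
Bars give the FPKM of assembled Cdk19 transcripts in each library (KO left, WT right), with filled parts for transcripts that kept exon 5 and hatched parts for transcripts that skipped it. The hatched part is present in no KO library and in the 3 WT libraries, at 3.40, 5.08 and 2.47 FPKM, and each bar is a single library with no error.

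Among 69217 coding exons whose inclusion was assembled in all 6 libraries, 4 (0.00578%) were also skipped in every KO and no WT library, and 5 (0.00722%) in every WT and no KO library. The 5 skipped in WT lay in Agfg1, Btd, Cdk19, Mphosph9 and Nf2. The number of these exons skipped in a library was 577, 577 and 551 in KO replicates 1 to 3 and 497, 567 and 563 in the WT replicates. Cdk19 was the only gene found both in this set and in the set of 11 genes with this difference in 3' UTR share. It was in the latter set by the rule that chose it, so the overlap is a description. Among the other 6 module genes, Med12l had skipped coding exons, where exons of 33 nt and 105 nt, both divisible by 3, were skipped in libraries of both genotypes.

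WT replicate 3 held only the first 30 bases of exon 13 (chr10:40479675-40479704, plus strand), which are printed to show where its assembly stopped.
exon 13, first 30 bases: CATTCCAGTTCTCGCCTGAATTACCAAAGC
The polyadenylation hexamers AATAAA and ATTAAA were searched for on the transcript strand in the last 40 nt before each end, since the signal is read in the RNA. One of them was present at the annotated ends of both coding Cdk19 transcripts and at the assembled ends of KO replicates 1 and 3. The window searched at these assembled ends was that of the annotated end of the main transcript, so they add no further match. None was present at the ends of KO replicate 2 or of the 3 WT replicates. Of 45100 annotated protein-coding transcripts, 60.0% had one of them in their last 40 nt and 1.71% in their last 40 coding bases. A match describes these letters and does not show a processing site.

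Most genes beside Cdk19 were listed at 0, which says only that no transcript meeting the length and strand rules was assembled on their own bases. The nearest annotated genes on either side, the pseudogenes Gm8948 and Gm18671, and the antisense gene Cdk19os, which overlaps the Cdk19 locus, were listed at 0 in all 6 libraries. Slc22a16, the nearest protein-coding gene downstream, was also listed at 0 throughout. Amd1, the nearest protein-coding gene upstream, which makes a polyamine-synthesis enzyme, was listed at 41.2 FPKM in KO replicate 1 and at 0 in the other 5 libraries.

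The other 6 genes of the module showed no difference between genotypes that passed the test. None of the 6 was called in the whole-gene comparison, in which 1 of 12029 genes (0.00831%) passed an adjusted p of 0.05 with limma, nor over coding bases, in which 1 of 11793 (0.00848%) passed. No member of the 6 had an unadjusted p under 0.05 in either. The called gene was Mettl23 in both, and with the replicate block no gene passed in either. Their median log2 difference over coding bases was -0.01, against 0.00 over all genes tested, with 3 of the 6 higher and 3 lower in KO. For 3' UTR bases 12 of 10631 genes passed (0.113%), for the difference between 3' UTR and coding bases 9 (0.0847%), none of them among the 6, and with the replicate block none passed in either. Both the 12 and the 9 include Cdk19, on the values that chose it, which is no test of that gene.

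**Figure D3:**
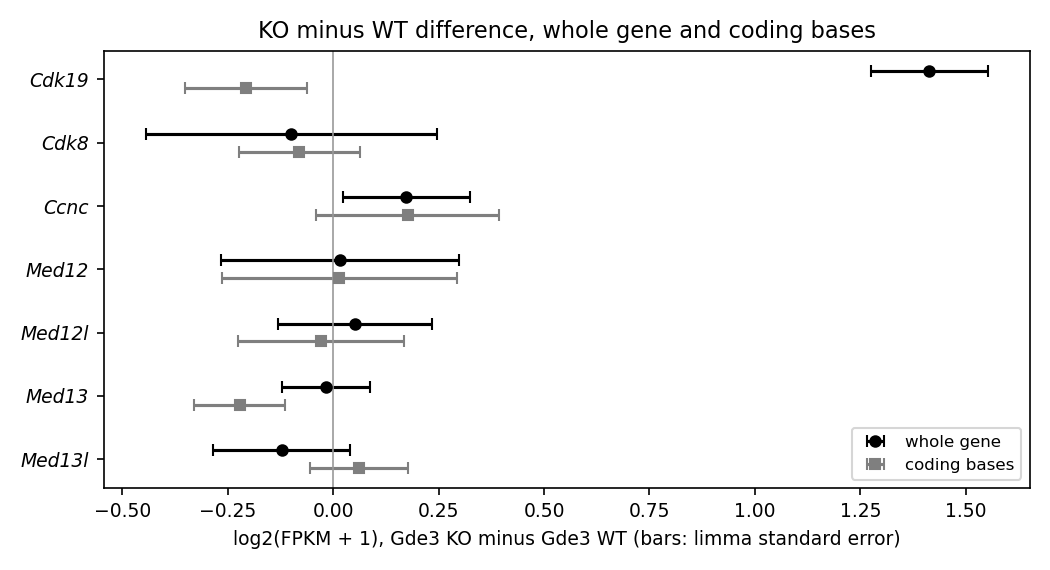
Points give the difference in log2(FPKM + 1), Gde3 KO minus Gde3 WT, for each module gene with its limma standard error (n = 3 libraries per genotype), from the whole-gene value (circles) and from coding bases alone (squares). Cdk19 is at 1.41 for the whole gene and at -0.21 for coding bases, while the other 6 genes lie between -0.22 and 0.18 on both. The Cdk19 points come from the values that chose the gene, and their bars carry no test.

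Cdk8, the paralog of Cdk19 (mm10 chr5:146231230-146302874, plus strand), had 13.2, 12.8 and 10.2 FPKM over coding bases in KO replicates 1 to 3 and 13.6, 13.2 and 11.5 FPKM in the WT replicates. The genotypes overlapped, although within each of the 3 same-numbered pairs the KO library was the lower one. The log2 difference was -0.08 ± 0.14 (limma standard error, as for the log2 differences below, limma adjusted p = 1.00). The 3' UTR of Cdk8 separated replicates rather than genotypes, with 14.3, 15.6 and 0 FPKM in KO replicates 1 to 3 and 15.9, 15.3 and 0 FPKM in the WT replicates. Both replicate 3 libraries held all 12 introns of the annotated Cdk8 transcript in 1 transcript that stopped before the last coding base, by 79 nt in KO and 38 nt in WT. The ends missing from Cdk8 there resembled the WT ends of Cdk19 in position, but were shared by the genotypes.

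The ratio of Cdk19 to Cdk8 over coding bases was 0.80, 0.87 and 1.35 in KO replicates 1 to 3 and 0.94, 1.16 and 1.15 in the WT replicates. The genes of both kinases thus had similar coding FPKM in all 6 libraries, and the ratios overlapped between genotypes. The WT Cdk19 values include the form that skipped exon 5, at 3.40, 5.08 and 2.47 FPKM in WT replicates 1 to 3. The reading frame of that form ran for 164 codons. Each Cdk19 FPKM also belongs to a whole assembled transcript, of 5731 to 5774 nt in KO and 1295 to 1762 nt in WT libraries. The ratios therefore compare assembled FPKM, and kinase protein was not measured.

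Ccnc encodes cyclin C, the partner that both kinases bind (mm10 chr4:21727701-21759922, plus strand). Its coding bases had 10.7, 12.0 and 14.2 FPKM in KO replicates and 8.46, 9.87 and 14.5 FPKM in WT replicates, with a log2 difference of 0.18 ± 0.22 (limma, adjusted p = 1.00). Its long 3' UTR was lower than the coding bases in every library, at 2.95, 2.93 and 3.77 FPKM in KO replicates and 3.44, 3.96 and 0.67 FPKM in WT replicates. The KO libraries had 77.4% to 79.9% of it assembled, against 42.8%, 78.9% and 4.75% in WT replicates 1, 2 and 3.

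Ccnc also differed between genotypes in an exon. A 94 nt exon (chr4:21747483-21747576, plus strand), within which the reading frame ends in 1 annotated coding transcript, was joined on both sides in every WT library and in no KO library. Transcripts with this exon inside had 0 FPKM in each KO replicate and 4.12, 1.98 and 6.05 FPKM in WT replicates 1, 2 and 3. Transcripts that skipped it had 3.54, 3.79 and 4.86 FPKM in KO replicates 1, 2 and 3, against 6.77, 3.10 and 11.7 FPKM in the WT replicates, so the skip was assembled in all 6 libraries. Transcripts that ended within or just past it had 7.76, 10.0 and 10.4 FPKM in KO replicates 1, 2 and 3, against 0, 5.36 and 0 FPKM in the WT replicates. At least the start of the exon was thus assembled in both genotypes. These transcripts ended at bases 21747618, 21747514 and 21747515 in KO replicates 1, 2 and 3. Among the KO libraries only replicate 1 therefore had the whole exon assembled. Among 1451 exons whose skip was assembled in all 6 libraries, 2 (0.138%) were joined on both sides in every KO and no WT library, in Usp34 and Phactr4, and 6 (0.414%), that of Ccnc included, in every WT and no KO library. This comparison was added after the values had been seen and carries no test.

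Med12, on the X chromosome (mm10 chrX:101274030-101297465, plus strand), encodes the subunit that activates the kinase. Its coding bases had 7.90, 15.0 and 13.6 FPKM in KO replicates and 8.65, 13.8 and 13.2 FPKM in WT replicates, so that both replicate 1 libraries were low. The log2 difference was 0.01 ± 0.28 without the replicate block and 0.01 ± 0.09 with it. Its 3' UTR shared its bases with another annotated gene and was not measured.

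Med12l, the paralog of Med12 (mm10 chr3:59005825-59318682, plus strand), had the lowest level of the module, with coding values of 3.09, 4.87 and 4.37 FPKM in KO replicates and 3.51, 4.75 and 4.29 FPKM in WT replicates. The log2 difference was -0.03 ± 0.20 (limma, adjusted p = 1.00). Its 3' UTR had 1.97, 3.27 and 2.85 FPKM in KO replicates and 1.85, 1.84 and 2.102 FPKM in WT replicates. The KO library was the higher one in all 3 pairs, and the genotypes overlapped. The difference between 3' UTR and coding bases was 0.35 ± 0.11 on the log2 scale, which did not pass over all genes (limma, unadjusted p = 0.022, adjusted p = 0.92). With the replicate block the unadjusted p was 0.051 (limma). The Med12l to Med12 ratio over coding bases was 0.35 ± 0.04 in KO libraries, against 0.36 ± 0.04 in WT libraries (SD, 3 libraries each).

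**Figure D4:**
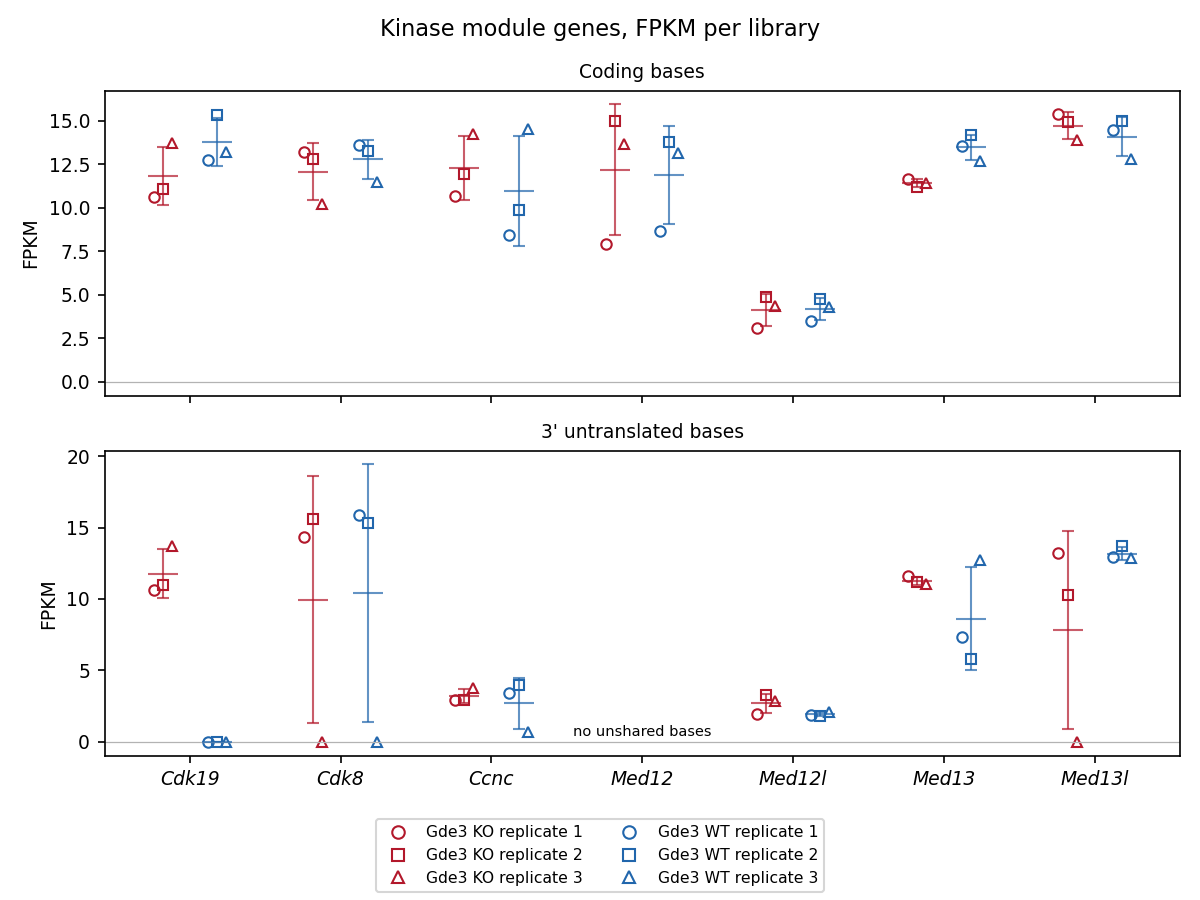
Each symbol is the FPKM of 1 library over the coding bases (top) or the 3' untranslated bases (bottom) of a module gene, Gde3 KO left of Gde3 WT, with circles, squares and triangles for replicates 1, 2 and 3 and bars for the mean and SD (n = 3). Coding values of Cdk19 overlap between genotypes, whereas its 3' UTR values are 10.6 to 13.7 FPKM in KO and 0 in WT, and the 3' UTR values of Cdk8 are at 0 in replicate 3 of both genotypes.

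Med13 encodes the subunit that anchors the kinase module to core Mediator (mm10 chr11:86267033-86357602, minus strand). Its coding bases had 11.6, 11.2 and 11.4 FPKM in KO replicates and 13.6, 14.2 and 12.7 FPKM in WT replicates. All 3 KO libraries lay below all 3 WT libraries, as for 320 of 11793 genes (2.71%) in this comparison. The log2 difference was -0.22 ± 0.11, which did not pass over all genes (limma, unadjusted p = 0.081, adjusted p = 1.00, and 0.84 with the replicate block). The whole-gene values overlapped, at 11.6, 11.2 and 11.2 FPKM in KO replicates and 11.0, 10.8 and 12.7 FPKM in WT replicates.

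The pieces in which Med13 was assembled differed between libraries. KO replicates 1 and 3 and WT replicate 3 each held Med13 as 1 transcript with all 29 introns, at 11.6, 11.4 and 12.7 FPKM, where coding and 3' UTR bases share a value. In WT replicates 1 and 2 the 3' end was a separate piece, with 3' UTR values of 7.36 and 5.81 FPKM beside coding values of 13.6 and 14.2 FPKM. KO replicate 2 was also in 2 pieces, with the 3' UTR and most of the exons in 1 of them, and had the lowest coding value, 11.2 FPKM. The part of these pieces in the coding difference was not tested.

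Med13l, the paralog of Med13 (mm10 chr5:118560679-118765438, plus strand), had 15.4, 14.9 and 13.9 FPKM over coding bases in KO replicates and 14.5, 15.0 and 12.8 FPKM in WT replicates, with a log2 difference of 0.06 ± 0.12 (limma, adjusted p = 1.00). Its 3' UTR had 13.2, 10.3 and 0 FPKM in KO replicates and 12.95, 13.7 and 12.8 FPKM in WT replicates. The assembly of KO replicate 3 stopped 104 nt before the last coding base, so that here a single KO library lacked the 3' UTR.

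The ratio of Med13l to Med13 over coding bases was 1.32, 1.34 and 1.22 in KO replicates and 1.07, 1.06 and 1.01 in WT replicates, without overlap. How many other gene pairs separate in this way was not counted. Its denominator, Med13, already had all KO libraries below WT over coding bases, as for 320 of 11793 genes (2.71%). The exact permutation test (two-sided), which ignored the pairing by replicate number, gave p = 0.10, the smallest that 3 against 3 unpaired libraries allow. Any ratio without overlap gives this p, so it only restates the separation. Adjusted over the 2 paralog ratios tested, this permutation p was 0.20. The part of the pieces in which Med13 was assembled in this ratio was not tested. Neither ratio had been planned, and both were computed after the member values had been seen.

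Per length, the coding levels of the module were close to each other except for Med12l. The means over the 6 libraries ran from 14.4 ± 0.93 FPKM for Med13l through 12.8 ± 1.74 for Cdk19, 12.4 ± 1.23 for Med13, 12.4 ± 1.31 for Cdk8 and 12.0 ± 2.97 for Med12 to 11.6 ± 2.42 for Ccnc and 4.15 ± 0.70 for Med12l (SD, n = 6). The ranges of neighbours in this order overlapped, with the exception of Med12l, whose highest library, at 4.87 FPKM, was below the lowest Ccnc library, at 8.46 FPKM.

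The rest of Mediator was taken as 26 subunits of the head, middle and tail, of which 25 were quantified and 24 tested over coding bases. None was called in either direction with limma, none had an unadjusted p under 0.05, 8 were higher and 16 lower in KO, and their median log2 difference was -0.04, against 0.00 over all genes. Med27, a subunit of core Mediator, had whole-gene values of 31.5, 32.0 and 28.7 FPKM in KO replicates and 36.9, 35.1 and 34.2 FPKM in WT replicates, a log2 difference of -0.20 ± 0.10 (limma, adjusted p = 1.00). Med22, a head subunit, was listed at 0 over the whole gene in the 3 KO libraries and in WT replicate 1, and at 2.73 and 18.5 FPKM in WT replicates 2 and 3. Med11, also of the head, had coding values of 25.2, 21.1 and 20.5 FPKM in KO replicates and 20.7, 14.9 and 19.5 FPKM in WT replicates (limma, adjusted p = 1.00). Med29 had coding values of 14.1, 0 and 11.7 FPKM in KO replicates and 28.7, 12.8 and 9.10 FPKM in WT replicates, and the 2 genotypes overlapped.

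Of 14 other kinases and cyclins of transcription, none was called over coding bases with limma, 1 (Cdk10) had an unadjusted p under 0.05, 10 were higher and 4 lower in KO, and the median log2 difference was 0.05. Cdk10, a cyclin-dependent kinase that pairs with cyclin Q, had coding values of 10.9, 16.7 and 14.2 FPKM in KO replicates and 4.90, 12.4 and 5.57 FPKM in WT replicates, a log2 difference of 0.88 ± 0.34 (limma, adjusted p = 1.00). Ccnq, which encodes cyclin Q, had 14.6, 14.8 and 14.2 FPKM over coding bases in KO replicates and 12.95, 12.96 and 8.98 FPKM in WT replicates, a log2 difference of 0.31 ± 0.16 (limma, adjusted p = 1.00). Neither change passed the test.

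The 5 genes whose whole-gene profile over the 6 libraries was most like that of Cdk19, among 10822 genes at 2 FPKM or more, were Dgkd (Pearson r = 0.97), Lrp4 (0.97), Cd82 (0.96), Gbf1 (0.95) and Fyb (0.94). These coefficients describe 6 points that fall into 2 genotypes. Dgkd had 15.1, 17.2 and 17.7 FPKM in KO replicates and 9.16, 9.75 and 10.8 FPKM in WT replicates, with 97.6% to 99.8% of its exonic bases assembled in KO and 64.2% in each WT library. Gbf1 was nearly fully assembled in KO libraries (99.6% to 99.8%) and less so in WT libraries (86.5% to 92.4%), at 25.1, 26.1 and 27.9 FPKM in KO replicates and 22.1, 23.2 and 21.1 FPKM in WT replicates. The assembled shares of Lrp4, Cd82 and Fyb overlapped between genotypes. In KO libraries they were 96.9% to 99.97%, 80.3% to 89.8% and 91.3% to 97.6%. In WT libraries they were 93.6% to 100%, 64.3% to 93.5% and 40.8% to 98.0%. Fyb, an adaptor protein of haematopoietic cells, had 2.14, 3.02 and 4.34 FPKM in KO replicates and 1.00, 1.14 and 1.31 FPKM in WT replicates. The microglial markers also had higher sums in the KO libraries, and their part in the values of Cdk19 and Fyb was not tested.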

How the data were processed

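Per the submitters' processing notes, the reads were handled on mm10 with FastQC, with TopHat2 (version 2.1.1) and with Cufflinks and Cuffdiff (version 2.2.1 of each). The authors deposited 1 transcript assembly per library, in which each transcript has its exons, coverage and FPKM per the file headers. No read counts were used, depth is relative only and no counting interval is given. The sources used here do not state strandedness. Transcripts were matched by position to GENCODE M21 (mm10). Transcripts of 300 nt or more whose strand was that of the gene, or was undetermined, were used. Their FPKM was summed at each base that no other gene shares and averaged over the whole gene, the coding bases or the 3' UTR bases (200 bases or more). An unassembled base counts as 0. A value therefore falls where part of a gene was not assembled.

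Genes averaging at least 1 FPKM (over coding bases, for the 3' UTR comparisons) were tested on log2(FPKM + 1), which understates changes of low genes, with limma 3.58.1 in R 4.3.3 (mean-variance trend, two-sided tests, a genotype term and no other) and Benjamini-Hochberg adjustment at 0.05. The code was tested on simulated data. Deviations from the genotype mean correlated across genes, which are not independent replicates, between KO and WT libraries of the same number (r = 0.42, 0.21 and 0.30 for numbers 1, 2 and 3) and less between unlike numbers (-0.29 to 0.02). Such deviations cancel within a genotype, so the lower r between unlike numbers partly follows from the higher r. The numbers in the titles were taken to pair the samples. The main fits left this pairing out, and the replicate block added it. The description labels give pair 1 another run identifier than pairs 2 and 3. Named genes were the 7 members, Gdpd2, the 2 genes of each list with the smallest p in each comparison, the 5 genes most like Cdk19 and its neighbours. The genes named for their assembled 3' UTR or for a skipped or included exon, and Mettl23, were named after their values were seen. The members and lists were chosen with earlier results of these data known. Mitochondrial genes were left out. The genes with an exon skipped in KO libraries alone are counted, and their names are not reported here.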

Additional observations from a re-analysis of the deposited data

How the results depend on the processing

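The whole-gene difference of Cdk19 reversed to -0.25 over assembled bases only and to -0.28 with FPKM summed over transcripts, both of which disregard unassembled bases by construction; it was 0.93 with a pseudocount of 5 and 1.61 with 0.1. Its coding difference kept its sign under all 17 alternatives (-0.31 to -0.13), as did its 3' UTR difference (1.74 to 6.88, the extremes being the 2 pseudocounts). With FPKM summed over transcripts, which counts a gene in pieces more than once, the coding difference was -0.57 for Med13, -0.78 for Med12 and -0.57 for Med12l and turned to -0.24 for Ccnc, and the whole-gene difference was -0.63, -0.78, -0.60 and -0.35; over assembled bases only the Ccnc whole-gene difference was -0.44. The Ccnc 3' UTR difference turned to -0.86 and -0.88 under these 2 settings and that of Med12l to -0.49 when summed. Under the other alternatives the Med13 coding difference was -0.26 to -0.17. Genes called numbered 1 (whole gene), 1 (coding), 12 (3' UTR) and 9 (3' UTR minus coding). The replicate block gave 0 in all 4 with limma, with 512, 521, 305 and 241 genes at an unadjusted p under 0.05. None of the 6 module genes other than Cdk19 passed with limma in any of the 4 comparisons under any setting (smallest adjusted p = 0.30). Both pseudocounts, 0.1 and 5, gave 0 for the whole gene and 0 for coding bases. Summed FPKM gave 0, 0 and 6 for the first 3, assembled bases only gave 2 for the whole gene, and no length minimum gave 2 for coding bases. Leaving out 1 library at a time gave 1 to 5, 0 to 7, 13 to 41 and 16 to 53 genes. For the whole gene the count was 5 without KO replicate 1, 3 without KO replicate 3 or WT replicate 1, and 2 without KO replicate 2 or WT replicate 2; for 3' UTR bases it was 41 without either replicate 1 library. Without replicate 1 in both genotypes it was 13, 11, 73 and 60. The cause was not tested. The count of 11 genes with the genotype difference in 3' UTR share was also 11 without the length minimum and with any strand. Depth is relative only, and an FPKM describes a whole assembled transcript. An absent 3' UTR or an absent exon junction is a statement on assembly, not on reads.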
